A study of Mus musculus with 12 samples.

Results

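The nuclear genes for subunits of respiratory complexes I, III and IV and of the mitochondrial ATP synthase were examined in mouse embryonic fibroblasts without and with focal adhesion kinase (FAK, gene Ptk2). They were all genes on the array whose symbol begins with Nduf followed by a, b, c, s or v (without the Ndufaf assembly factors), with Uqcr, with Cox4 to Cox8 or with Atp5. These were 79 of the 17016 genes with a named probe, measured by 98 probes. Of the 79, 75 passed the filter for signal above background and were tested, and 4 isoform genes of complex IV (Cox4i2, Cox7b2, Cox8b and Cox8c) did not. Their place in a complex was taken from general knowledge: 35 tested genes belong to complex I, 8 to complex III, 15 to complex IV and 17 to the ATP synthase. Of these 75 genes, 74 were well above background on all 12 arrays. The exception was Ndufv3, on 2 of 3 arrays of sparse rescue cells and on all others.

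The KO cells are the FAK-knockout fibroblast line, grown in DMEM with Glutamax and 10% serum. The rescue cells are 1 clone (DA2) that carries FAK again, grown in the same medium with hygromycin B and non-essential amino acids added, so line and medium differ together. Both were seeded at 8200000 (dense) or 410000 (sparse) cells per 10 cm dish and harvested after 24 h, on 3 experimental days. This gave 3 cultures in each of 4 groups: KO dense, KO sparse, rescue dense and rescue sparse. RNA of each culture was hybridised to 1 Agilent one-colour array. Cultures of a group come from 1 line, so the tests measure the spread between days and not between independently made lines.

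The respiratory chain passes electrons from NADH (complex I) and succinate through complex III to oxygen at complex IV and pumps protons across the inner mitochondrial membrane, and the ATP synthase uses the return flow of protons to make ATP. Complexes I, III and IV and the ATP synthase are built from a few subunits encoded by mitochondrial DNA and many encoded in the nucleus. The nuclear genes are widely expressed and many have promoters bound by the transcription factors NRF1 and GABP, an ETS factor, while a few complex IV and ATP synthase genes have isoforms for heart and muscle, lung or testis. No mitochondrially encoded subunit was on the array under its name, so all values here are for nuclear genes.

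Some promoters of these genes hold short sequences that the choice by symbol did not use. The RefSeq promoter table (GRCm38.p6, from 250 bases before to 50 bases after each start) held 70 promoters for 65 of the 79 genes. The NRF1 motif, GCGC then any letter then TGCGC, on either strand, was in 15 of the 70 (21.4%), against 4.6% of all 32851 promoters. The ETS motif CCGGAAG, on either strand, was likewise in 15 of the 70 (21.4%), against 8.86% of all. In all, 27 of the 70 (38.6%) held at least 1 of them, against 12.6% of all. Such a match is a description of the letters, not of binding. Shown here are the promoters of 5 genes whose levels differed between the lines at both densities, with any NRF1 or ETS motif in capitals. Ndufb4 held 3 NRF1 motifs, Atp5o 1 NRF1 motif, Atp5j and Ndufb7 1 ETS motif each, and Ndufv3 neither motif in this window; a second window listed for Atp5j held neither. Ndufb4, Atp5o and Atp5j, which were lower in KO cells, lie on 1 chromosome, and Ndufb7 and Ndufv3 were higher in KO cells.
Ndufb4 promoter, chr16:37654319-37654618, minus strand: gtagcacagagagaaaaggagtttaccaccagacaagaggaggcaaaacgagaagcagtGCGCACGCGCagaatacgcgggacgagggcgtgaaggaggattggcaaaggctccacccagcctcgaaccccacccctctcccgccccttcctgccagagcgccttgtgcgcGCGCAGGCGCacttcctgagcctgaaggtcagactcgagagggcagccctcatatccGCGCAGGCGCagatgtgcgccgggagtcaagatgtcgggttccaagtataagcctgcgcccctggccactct
Atp5o promoter, chr16:91931581-91931880, minus strand: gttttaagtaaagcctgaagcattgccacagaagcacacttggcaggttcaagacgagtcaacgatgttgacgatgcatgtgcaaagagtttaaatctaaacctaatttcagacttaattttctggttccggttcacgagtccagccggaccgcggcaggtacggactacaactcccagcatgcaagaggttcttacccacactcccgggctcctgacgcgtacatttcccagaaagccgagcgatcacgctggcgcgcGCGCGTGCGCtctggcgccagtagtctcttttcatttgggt
Atp5j promoter, chr16:84834927-84835226, minus strand: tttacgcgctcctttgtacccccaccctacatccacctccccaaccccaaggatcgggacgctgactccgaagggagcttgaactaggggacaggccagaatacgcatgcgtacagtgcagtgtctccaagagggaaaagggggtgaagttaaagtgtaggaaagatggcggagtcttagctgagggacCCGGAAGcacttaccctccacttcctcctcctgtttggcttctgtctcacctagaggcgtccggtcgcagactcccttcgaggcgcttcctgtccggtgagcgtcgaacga
Ndufb7 promoter, chr8:83566508-83566807, plus strand: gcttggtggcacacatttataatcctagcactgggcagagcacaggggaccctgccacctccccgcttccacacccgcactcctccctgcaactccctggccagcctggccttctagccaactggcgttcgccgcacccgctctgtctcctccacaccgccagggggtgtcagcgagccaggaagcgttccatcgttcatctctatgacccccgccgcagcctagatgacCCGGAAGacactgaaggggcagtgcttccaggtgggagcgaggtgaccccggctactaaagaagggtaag
Ndufv3 promoter, chr17:31519865-31520164, plus strand: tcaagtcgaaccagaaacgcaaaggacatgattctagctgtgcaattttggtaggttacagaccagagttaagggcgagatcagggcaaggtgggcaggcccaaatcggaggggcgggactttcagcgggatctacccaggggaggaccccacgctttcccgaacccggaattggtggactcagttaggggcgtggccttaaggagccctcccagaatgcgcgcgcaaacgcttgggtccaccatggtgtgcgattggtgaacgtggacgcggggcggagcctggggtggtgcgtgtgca

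Levels are given as log2 of the processed signal minus the 75th percentile of the array, so 0 is the signal that marks that percentile and a difference is a log2 ratio. Arrays of the same group correlated at 0.982 to 0.992. Ptk2 itself was measured by 2 probes. One of them read -1.76, -1.25 and -1.10 in sparse KO cells, against 0.65, 0.23 and 1.24 in sparse rescue cells (log2 change -2.08 ± 0.31 SE, adjusted p = 0.000167), and the change was -0.93 ± 0.31 in dense cells (adjusted p = 0.021). Its companion did not differ past the test (-0.11 in sparse and -0.07 in dense cells); where either lies in the transcript is not known here. The scanner files were used throughout, because the 4 columns for day 3 of the authors' deposited value table each followed the scanner array of the other line (rank correlation 0.827 to 0.865 with their own array and at least 0.991 with the best match), while the 8 columns of days 1 and 2 followed their own. In days 1 and 3 each slide held a single line, so line and slide cannot be told apart there, and only the day-2 slide held all 4 groups. With slide as a block, 8 of the 14 subunit calls between lines in sparse cells and 17 of the 25 in dense cells were kept. Without day 3, 8 of the 14 and 21 of the 25 were kept.

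The cells carried fibroblast markers, and other marker lists moved with the line. Of 9 fibroblast markers, 8 were well above background in every group; their summed level was 8.41 to 8.54 in KO cells and 10.04 to 10.90 in rescue cells, and 6 were lower and 2 higher in sparse KO cells and all 8 lower in dense KO cells. All 4 mesothelial markers were detected in KO cells and 1 of 4 (Msln) in rescue cells (summed level 5.92 to 6.17 and 4.53 to 5.38), with 3 higher and Msln lower (-1.31 and -1.66) in KO cells at both densities; Wt1 was at least 1573-fold higher in sparse KO cells (adjusted p = 1.26e-10). Of 4 epithelial markers, 2 were detected in KO cells and 2 or 3 in rescue cells (summed level 6.22 to 7.07 and 0.38 to 2.61), with Krt18 higher in KO cells by 8.53 in sparse and 9.73 in dense cells. Of the 3 epithelial markers tested, 1 was higher and 0 lower in sparse KO cells (limma), and 2 were higher and 1, Cdh1, lower in dense KO cells (at least 3.03-fold, adjusted p = 0.00153). At most 1 of 4 endothelial and 1 of 4 adipocyte markers and none of the 3 immune markers on the array were detected in any group. What part these differences have in the results below was not tested, and in such bulk RNA fewer cells of a type and less RNA per cell cannot be told apart.

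Between the lines, most subunit genes did not pass the test, and those that did were split in direction. In sparse cells 7 subunit genes were higher in KO cells (all genes 23.2%), 7 were lower (all genes 25.6%) and 61 did not pass (limma, adjusted p under 0.05 over all 12438 genes). That is 18.7% of the 75, while 48.8% of all genes tested passed. With the experimental day as a block, 14 were higher and 8 lower in sparse KO cells, which is 29.3%, against 51.6% of all genes. Without sparse KO culture 1 or 2 the number higher was 3 or 4, and without sparse KO culture 2 or 3 or sparse rescue culture 2 the number lower was 4. In dense cells 8 were higher in KO cells (all genes 31.9%), 17 were lower (all genes 29.7%) and 50 did not pass, which is 33.3%, against 61.6% of all genes. KO and rescue cultures did not overlap for 28 of 75 subunit genes in sparse cells (37.3%, against 58.9% of all genes) and for 33 in dense cells (44%, against 67.1%). Of the 28, 22 were higher and 6 lower in KO cells (all genes 3590 and 3731). Of the 33, 14 were higher and 19 lower (all genes 4321 and 4031). At an unadjusted p under 0.05 (limma), 17 were higher and 8 lower in sparse KO cells, and 8 higher and 19 lower in dense KO cells. The standard error of a change was similar in the subunit genes and in all genes (median 0.238 and 0.244 in sparse cells), while the median absolute log2 change was 0.39 in the subunit genes and 0.65 in all genes. Changes of at least 1 log2 unit occurred in 6.67% of subunit genes and 33.3% of all genes in sparse cells, and in 13.3% and 45.4% in dense cells.

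The median log2 change of the subunit genes, KO minus rescue, was 0.22 in sparse cells (all genes 0.03) and -0.12 in dense cells (all genes 0.08). Relative to all genes these medians were 0.20 and -0.19, and 0.23 and -0.22 with quantile normalisation. Centring on the array median or on the spike-in RNA shifts all genes of an array alike, so it cannot change these relative values. The sparse relative value was -0.05 with normexp background correction, 0.0042 with slide as a block and 0.04 with no filter on dim probes. With centring on the spike-in RNA the median over all genes was -1.44 in sparse and 0.37 in dense cells, so directions here are relative to the other genes. Without dense rescue culture 2 the dense median was 0.05, and without dense rescue culture 3 it was -0.37. Of the 75 genes, 45 (60%) passed none of the 5 comparisons, against 22.7% of all genes. The interquartile range of the subunit changes was 0.56 in sparse and 0.88 in dense cells, against 1.29 and 1.75 for all genes.

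**Figure D1:**
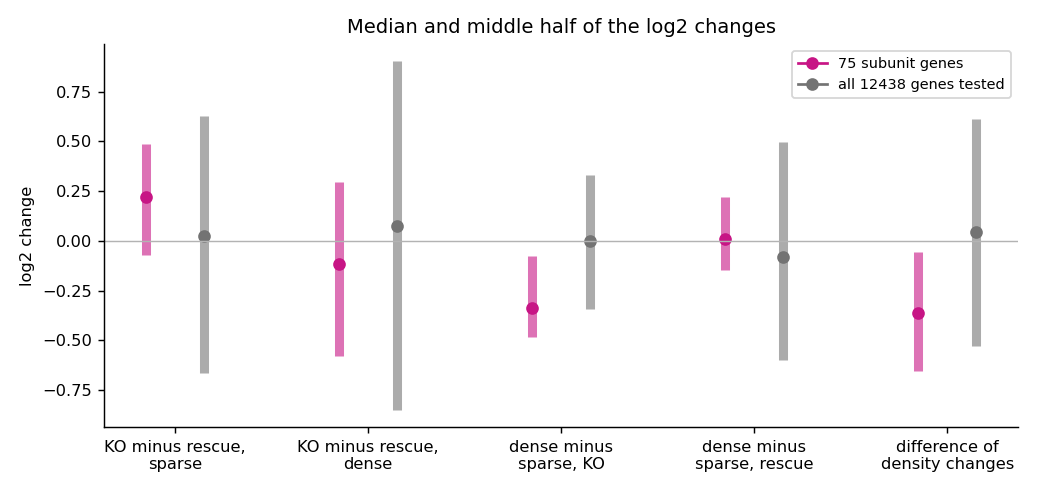
Median (point) and interquartile range (bar) of the log2 changes of the 75 subunit genes (pink) and of all 12438 genes tested (grey) in the 5 comparisons; the last is the density change in KO cells minus that in rescue cells. The subunit bars are shorter than those of all genes in every comparison, and the subunit medians for density in KO cells (-0.34) and for the difference of density changes (-0.36) lie below 0.

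Complex I takes electrons from NADH through a matrix arm and pumps protons in a membrane arm. Its 7 nuclear core subunits, which bind the flavin and the iron-sulphur clusters, had no call in sparse cells (limma; 1 had an unadjusted p under 0.05, Ndufv2 at 0.48). In dense cells Ndufv2 was higher in KO cells (0.66 ± 0.20 SE, adjusted p = 0.0135), and Ndufs7 (-0.80 ± 0.22, adjusted p = 0.0069) was lower. Ndufv1, which binds the flavin, had log2 differences of 0.05 and 0.26 in sparse and dense cells and Ndufs1 of -0.02 and -0.25, none past the test. Among the 10 accessory subunits of the matrix arm, 2 were higher and 1 lower in sparse KO cells, and 2 were higher and 2 lower in dense KO cells. Among the 18 of the membrane arm, 2 were higher and 1 lower in sparse KO cells, and 2 were higher and 5 lower in dense KO cells. Calls thus made up 30% and 40% of the matrix arm genes and 16.7% and 38.9% of the membrane arm genes. Over all genes, 23.2% were higher and 25.6% lower in sparse KO cells, and 31.9% and 29.7% in dense KO cells.

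Ndufa9 and Ndufb7 had, after Ndufv3, the largest rises in KO cells at both densities. Ndufa9, an accessory subunit where the matrix arm joins the membrane, read 4.60, 4.44 and 4.14 in sparse KO cultures, against 2.84, 2.68 and 2.76 in sparse rescue cultures. In the dense dishes it read 4.38, 4.24 and 4.20 in KO cultures, against 2.90, 3.08 and 2.63 in rescue cultures. Every KO culture was above every rescue culture, and the differences were 3.11-fold in sparse cells (adjusted p = 9.97e-06) and 2.64-fold in dense cells (adjusted p = 2.53e-05). Ndufb7, a membrane arm subunit on the side of the intermembrane space, read 7.32, 7.18 and 7.00 in sparse KO cultures, against 5.49, 5.53 and 5.57 in sparse rescue cultures. At high density it read 6.69, 6.82 and 6.80 in KO cultures, against 5.42, 5.71 and 5.10 in rescue cultures. The groups were again apart, by 3.11-fold (adjusted p = 1.04e-05) and 2.57-fold (adjusted p = 3.31e-05). Only with spike-in centring did either sparse difference miss the test (Ndufa9 0.18, adjusted p = 0.632, and Ndufb7 0.17).

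Ndufb4 and Ndufs4 were the complex I genes lower in KO cells at both densities. Ndufb4, a membrane arm accessory subunit, read 5.17, 5.02 and 4.77 in sparse KO cultures, against 5.82, 5.90 and 5.75 in sparse rescue cultures. In dense cells it read 4.66, 4.68 and 4.55 in KO cultures, against 5.85, 6.36 and 5.45 in rescue cultures. All KO cultures were below all rescue cultures, by 1.79-fold in sparse cells (adjusted p = 0.00688) and 2.38-fold in dense cells (adjusted p = 0.000315). Ndufs4, a matrix arm subunit needed for a stable complex and mutated in Leigh syndrome in humans, read 3.78, 3.36 and 3.46 in sparse KO cultures, against 4.60, 4.12 and 4.24 in sparse rescue cultures. In dense cells it read 3.51, 3.68 and 3.72 in KO cultures, against 4.47, 4.34 and 4.91 in rescue cultures. Again no culture overlapped, and the differences were 1.72-fold (adjusted p = 0.00713) and 1.91-fold (adjusted p = 0.00172). Ndufb6, a membrane arm subunit, was higher in dense KO cells (0.76 ± 0.24, adjusted p = 0.0155), and Ndufb10 was higher in sparse KO cells (0.65 ± 0.25, adjusted p = 0.0448). The other membrane arm genes lower in dense KO cells were Ndufa1 (-1.03), Ndufb11 (-0.88), Ndufb3 (-0.76) and Ndufa13 (-0.67), and Ndufa2 of the matrix arm changed by -0.69.

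**Figure D2:**
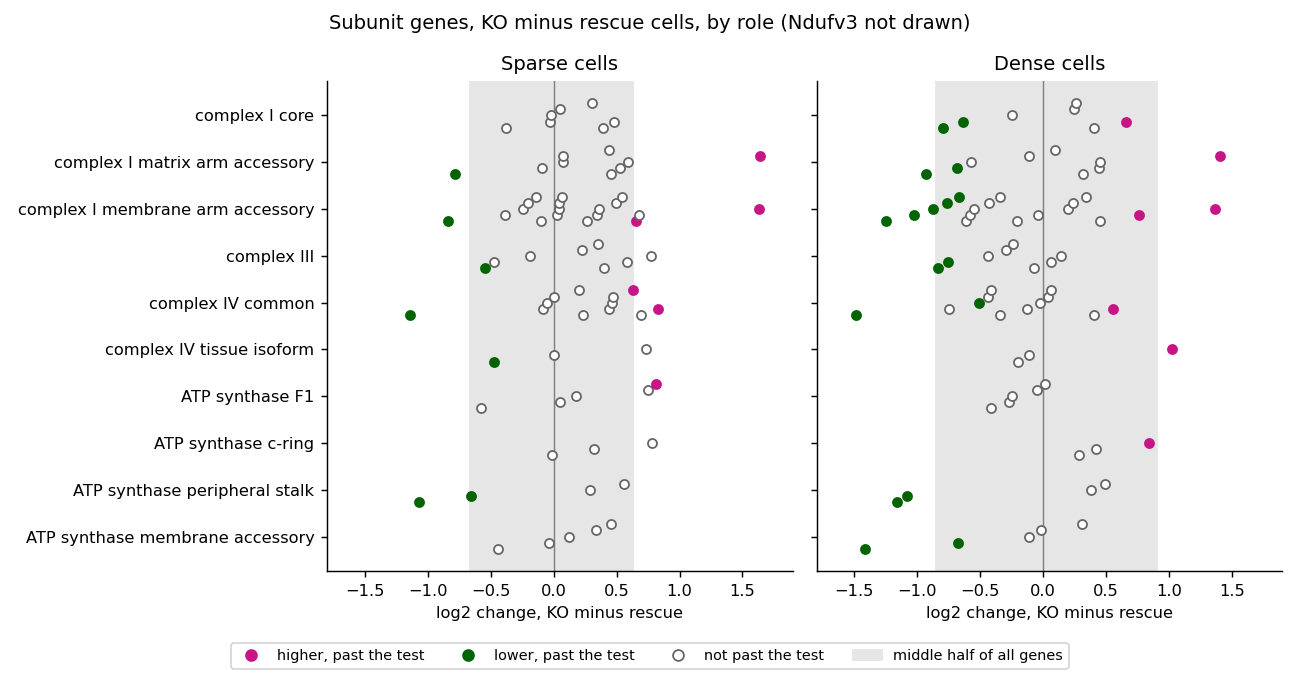
Log2 change, KO minus rescue, of each tested subunit gene (1 point per gene, spread vertically for legibility) by role, in sparse cells (left) and dense cells (right); filled points passed the test and the grey band is the interquartile range of all genes. Ndufv3, at 8.04 and 7.15, is outside the axis and not drawn. Most points lie inside the band. The membrane arm of complex I, the role with the most genes (18), holds the most calls in dense cells. These are 38.9% of its genes, against 61.6% of all genes.

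Ndufv3, an accessory subunit of the NADH-binding module that exists as a short and a long splice form, differed between the lines by far the most. Its 3 probes were all higher in KO cells. The brightest read 2.66, 2.20 and 1.99 in sparse KO cultures, against -5.51, -5.72 and -6.04 in sparse rescue cultures. In the dense dishes it read 2.67, 2.31 and 2.16 in KO cultures, against -4.13, -4.37 and -5.83 in rescue cultures. The rescue values lay near the detection limit: the lowest signal well above background averaged -6.01 on the 3 sparse rescue arrays, and this probe passed on 2 of them. The differences were 263-fold in sparse cells (log2 8.04 ± 0.38 SE, adjusted p = 5.56e-09) and 143-fold in dense cells (7.15 ± 0.38, adjusted p = 1.34e-08). The second probe was well above background on none of the sparse rescue arrays and was at least 34.5-fold higher in sparse KO cells, with means of -0.40 in KO and -5.51 in rescue cells. In dense cells its means were 0.15 ± 0.02 in KO and -5.54 ± 0.24 in rescue cells (SD, n = 3 each; 2 rescue arrays above background). The third probe was above background on all 12 arrays and differed less, by 3.08 in sparse and 3.02 in dense cells on the log2 scale (adjusted p = 7.19e-05 and 5.68e-05 in a limma fit of all kept probes). Which splice form each probe reads was not analysed here.

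**Figure D3:**
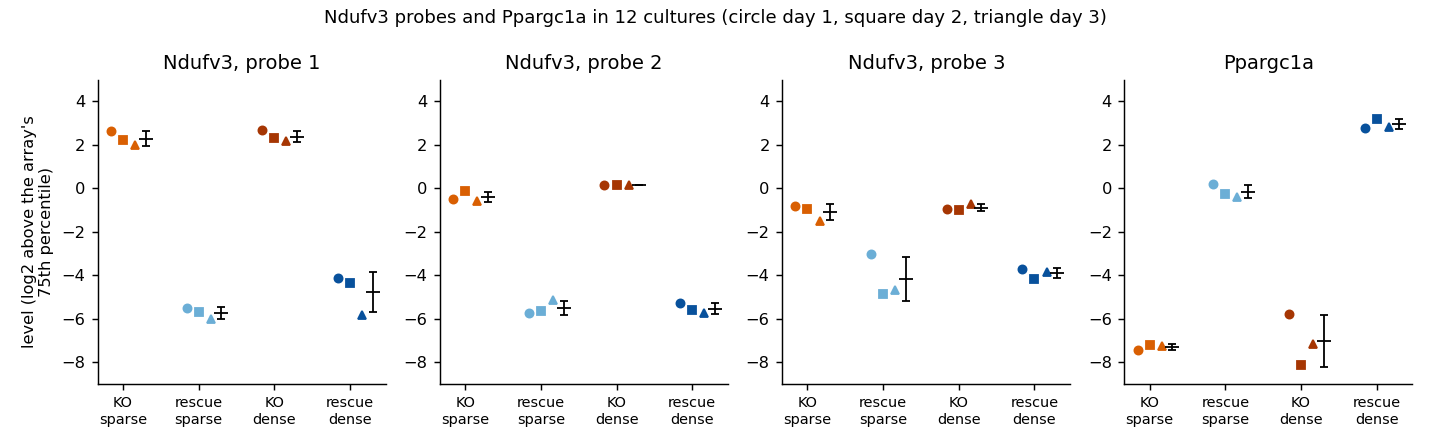
Levels of the 3 Ndufv3 probes, ordered by brightness, and of Ppargc1a in each culture (log2 above the array's 75th percentile; symbols mark the day, bars the mean and SD of 3 cultures). All 6 KO cultures lie above all 6 rescue cultures for each Ndufv3 probe, and below all 6 for Ppargc1a.

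Complex III, which passes electrons from ubiquinol to cytochrome c, had 8 tested genes. Uqcrc1, a core structural subunit, was lower in sparse KO cells, with 5.01, 4.75 and 4.85 in KO cultures against 5.42, 5.36 and 5.48 in rescue cultures (-0.54 ± 0.16, adjusted p = 0.0129), and its second probe gave -0.53. In dense cells the small subunits Uqcr10 (-0.75 ± 0.24, adjusted p = 0.0161) and Uqcr11 (-0.84 ± 0.19, adjusted p = 0.00198) were lower in KO cells. Uqcr11 read 5.30, 5.35 and 5.42 in dense KO cultures, against 6.11, 6.52 and 5.94 in dense rescue cultures. No complex III gene passed the test as higher in KO cells at either density, by limma. Calls made up 12.5% of the 8 genes in sparse and 25% in dense cells, against 48.8% and 61.6% of all genes.

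Complex IV, cytochrome c oxidase, reduces oxygen, and its nuclear subunits surround a mitochondrially encoded core. The 12 genes grouped here as common include Cox7a2l, a related supercomplex factor. Calls made up 25% of these 12 at each density, against 48.8% of all genes in sparse and 61.6% in dense cells. In sparse cells Cox5a (0.83 ± 0.29, adjusted p = 0.0347, lost under 9 of 23 settings and turned in sign under 1) and Ndufa4 (0.63 ± 0.19, adjusted p = 0.0155), a subunit of complex IV despite its name, were higher in KO cells and Cox7c was lower. In dense cells Cox8a was higher (0.56 ± 0.21, adjusted p = 0.038, lost under 10 of 23 settings) and Cox7c and Cox7b (-0.51 ± 0.20, adjusted p = 0.0465) were lower. Cox7c read 2.58, 1.19 and 1.05 in sparse KO cultures, against 3.60, 2.58 and 2.05 in sparse rescue cultures. At high density it read 1.40, 1.25 and 1.15 in KO cultures, against 2.93, 3.02 and 2.30 in rescue cultures. The sparse groups overlapped and the dense groups did not. The change of Cox7c was -1.14 ± 0.44 in sparse cells (adjusted p = 0.0476), a call lost under 14 of 23 other settings, and -1.49 ± 0.44 in dense cells (adjusted p = 0.0108), kept under all 23.

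In the ATP synthase, the peripheral stalk that holds the catalytic head still had 2 of its 4 genes lower in KO cells at both densities. That is 50%, while 48.8% of all genes passed in sparse and 61.6% in dense cells (25.6% and 29.7% as lower). Atp5j (coupling factor 6) read 5.47, 5.22 and 5.24 in sparse KO cultures, against 6.44, 6.48 and 6.21 in sparse rescue cultures. In dense cells it read 5.39, 5.17 and 4.94 in KO cultures, against 6.25, 6.60 and 5.89 in rescue cultures. No culture of KO cells reached any of rescue cells, and the differences were 2.10-fold (adjusted p = 0.00103) and 2.12-fold (adjusted p = 0.000649). Atp5o, the oligomycin sensitivity-conferring subunit at the top of the stalk, read 5.70, 5.46 and 5.33 in sparse KO cultures, against 6.46, 6.34 and 5.66 in sparse rescue cultures. In dense cells it read 5.53, 5.32 and 5.16 in KO cultures, against 6.49, 6.80 and 6.20 in rescue cultures. The sparse groups overlapped for Atp5o (1.58-fold lower, adjusted p = 0.039, lost under 7 of 23 settings) and the dense groups did not (2.23-fold lower, adjusted p = 0.00116). The other stalk genes, Atp5pb and Atp5h, did not pass at either density. For both, every dense KO culture lay above every dense rescue culture, opposite in direction to Atp5j and Atp5o. Dense cultures of the 2 lines did not overlap for 67.1% of all genes.

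In the catalytic head of the ATP synthase 1 of 5 genes, each read by its brightest probe, passed a test between the lines. This was Atp5e, the small subunit at the foot of the central stalk, higher in sparse KO cells (0.81 ± 0.27, adjusted p = 0.0269, lost under 9 of 23 settings and turned in sign under 1). That is 20% in sparse cells, against 48.8% of all genes. The catalytic subunit Atp5b had log2 differences of 0.18 in sparse and -0.27 in dense cells by its brightest probe, not past the test, and its dimmest probe changed by -0.60 and -0.69, both past it. For Atp5a1 the brighter probe averaged 6.26 in sparse KO and 6.21 in sparse rescue cells. Its dimmer probe averaged 4.96 and 5.71 there, without overlap, and 5.29 and 5.19 in dense cells. Among membrane accessory subunits, Atp5mpl, a small proteolipid, read 3.64, 3.75 and 3.39 in dense KO cultures, against 4.97, 5.55 and 4.51 in dense rescue cultures. This was 2.67-fold lower in KO cells, without overlap (adjusted p = 0.000468), and Atp5j2 was 1.60-fold lower (adjusted p = 0.0318). The c subunit of the proton-driven ring is encoded by 3 genes for the same mature protein. Of these Atp5g1 was higher in dense KO cells, with 5.52, 5.35 and 5.43 in KO cultures against 4.51, 4.86 and 4.43 in rescue cultures (0.84 ± 0.19, adjusted p = 0.00241). The differences there were 0.29 for Atp5g2 and 0.42 for Atp5g3, neither past the test.

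**Figure D4:**
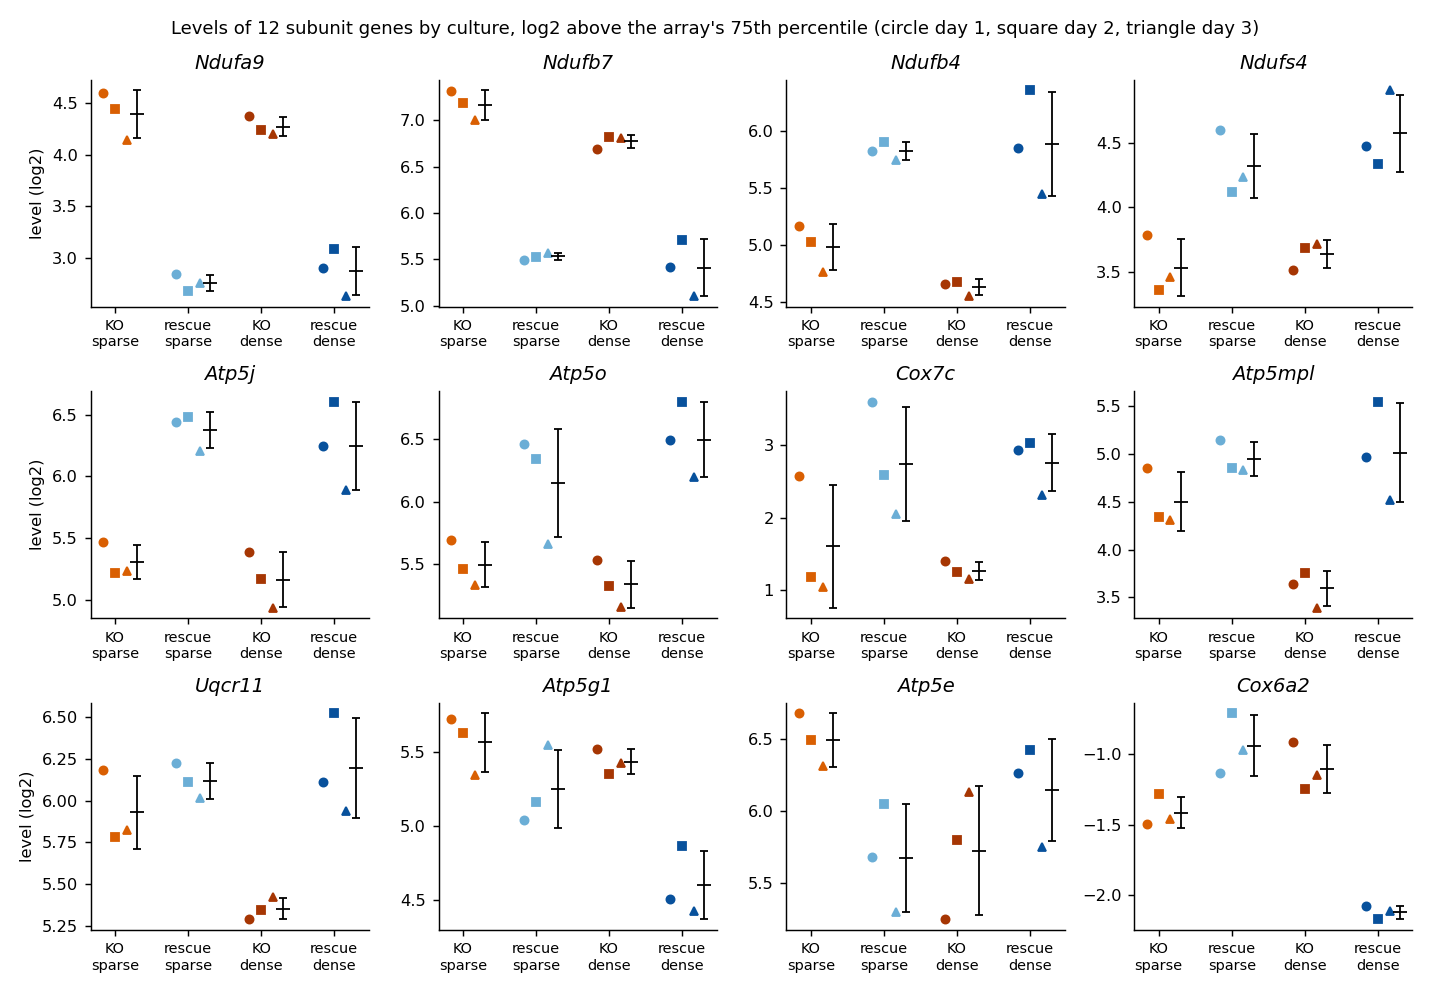
Levels of 12 subunit genes in each culture (log2 above the array's 75th percentile; symbols mark the day, bars the mean and SD of 3 cultures; each panel has its own axis). Ndufa9 and Ndufb7 are higher in KO cells and Ndufb4, Ndufs4 and Atp5j lower, without overlap at either density, and Cox6a2 is lowest in dense rescue cells.

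With density, hardly any subunit gene passed the test in either line. In KO cells none was higher in dense than in sparse cultures (all genes 5.43%), 2 were lower (all genes 5.48%) and 73 did not pass (limma), which is 2.67%, against 10.9% of all genes. At an unadjusted p under 0.05 there were 10, all lower in dense cells. Of the genes that passed, Atp5mpl read 3.64, 3.75 and 3.39 in dense KO cultures, against 4.86, 4.34 and 4.30 in sparse ones (-0.91 ± 0.26, adjusted p = 0.044). Its dense cultures were all below the sparse ones, but the call was lost under 14 of 23 settings and its sign turned under 1, spike-in centring; the settings that lost it included leaving out any of the 3 sparse KO cultures. The largest change was that of Cox6c, a complex IV subunit, with 5.56, 4.79 and 4.64 in dense and 6.60, 6.02 and 5.85 in sparse KO cultures (-1.16 ± 0.35, adjusted p = 0.0568, not past the test).

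Most subunit changes with density in KO cells lay below 0, and the group as a whole was not tested. The median log2 change was -0.34, against 0.00 over all genes, and 59 of 75 (78.7%) were below 0, against 50.2% of all genes. Dense and sparse KO cultures did not overlap for 28 of the 75 (37.3%, against 38.2% of all genes), and 27 of these 28 were lower in dense cells, whereas all genes were about evenly split in direction. All 8 complex III genes, 11 of 12 common complex IV genes, 15 of 18 membrane arm and 8 of 10 matrix arm accessory genes of complex I were below 0, but 2 of 7 complex I core genes. The median was -0.48, -0.27 and -0.12 on the slides of days 1, 2 and 3, and -0.17 without the first sparse KO culture, in which subunit genes lay highest. Set against each gene's mean over all arrays, their median was -0.02, -0.13 and -0.17 in the dense KO cultures, against 0.41, 0.15 and -0.01 in the sparse ones. The median change was -0.0841 with median centring, where that of all genes was 0.25, and -0.085 in the deposited table of days 1 and 2. Relative to all genes it was -0.33 with centring on the 75th percentile. Centring on the median or the spike-in RNA cannot change this relative value. The relative value was -0.20 with quantile normalisation and -0.15 with normexp. With spike-in centring all genes were 2.50 and the subunit genes 2.16 higher in dense KO cells.

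In rescue cells no subunit gene was higher in dense cultures (all genes 19%), 2 were lower (all genes 21%) and 73 did not pass (limma; 2.67%, against 40% of all genes), and 5 had an unadjusted p under 0.05, of which 3 were higher. With day as a block, 1 was higher and 2 lower in dense rescue cells. Atp5g1 read 4.51, 4.86 and 4.43 in dense rescue cultures, against 5.04, 5.16 and 5.55 in sparse ones (-0.65 ± 0.19, adjusted p = 0.018, lost under 7 of 23 settings and turned in sign under 1). Cox6a2, the isoform of complex IV subunit 6a of heart and skeletal muscle, read -2.08, -2.17 and -2.11 in dense rescue cultures, against -1.14, -0.71 and -0.97 in sparse ones, 2.27-fold lower (adjusted p = 0.000199). Neither gene's cultures overlapped. The widely expressed isoform Cox6a1 was far brighter than Cox6a2, with means of 7.91 in sparse and 7.78 in dense rescue cells. The median over the 75 genes was 0.01, against -0.08 over all genes, with 36 below 0, and 6 genes did not overlap between densities (8%, against 50.6% of all genes). Over the slides of days 1, 2 and 3 that median was -0.12, 0.41 and -0.28. The dense rescue culture of day 2 lay highest of the 12 arrays after the first sparse KO culture (median 0.38 above each gene's mean) and that of day 3 lowest (-0.36). Without the dense rescue culture of day 2, 8 subunit genes were lower in dense KO than in dense rescue cells, and without that of day 3, 23, in place of 17. Leaving out dense KO culture 2 or 3 or dense rescue culture 1 each gave 11.

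**Figure D5:**
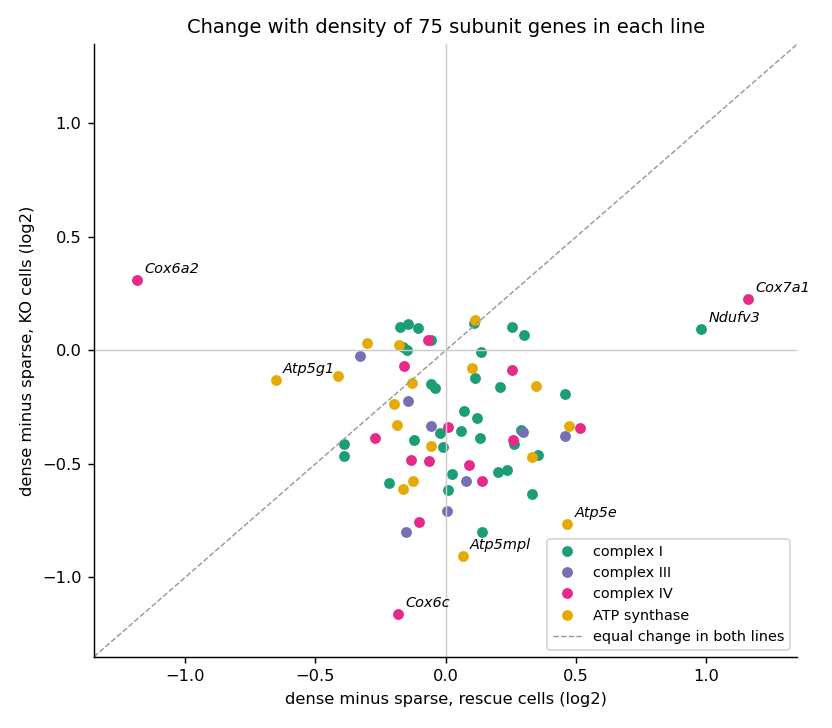
Log2 change with density (dense minus sparse) of the 75 subunit genes, with rescue cells on the horizontal and KO cells on the vertical axis, coloured by complex; the dashed line marks equal change. Most points lie below the dashed line, and Cox6a2 and Atp5e stand off it in opposite directions.

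The density change differed between the lines for 2 of 75 subunit genes (2.67%, against 20.7% of all genes; 11.3% with a positive and 9.46% with a negative difference), and for 10 at an unadjusted p under 0.05. For Cox6a2 the difference, KO minus rescue, was 1.49 ± 0.23 (adjusted p = 0.00134), past the test under all 23 settings. Cox6a2 read -0.91, -1.25 and -1.15 in dense KO cultures, against -1.50, -1.29 and -1.46 in sparse ones (0.31, not past the test), beside the fall in rescue cells. It was 1.39-fold lower in sparse KO than in sparse rescue cells (adjusted p = 0.0326, lost under 8 of 23 settings) and 2.03-fold higher in dense KO than in dense rescue cells (adjusted p = 0.000201), and was the only subunit gene of the 75 with opposite calls at the 2 densities. For Atp5e the difference was -1.23 ± 0.38 (adjusted p = 0.0418), and the call was lost under 12 and its sign turned under 1 of 23 settings, and without dense rescue culture 3 the number lower was 7 in place of 1. Atp5e read 5.25, 5.80 and 6.13 in dense KO cultures, against 6.68, 6.49 and 6.31 in sparse ones, and 6.26, 6.42 and 5.75 in dense rescue cultures, against 5.68, 6.05 and 5.30 in sparse ones. The median difference over the 75 genes was -0.36, against 0.04 over all genes. Below 0 were 59 of the 75 (78.7%), against 47.6% of all genes. These 59 included all 10 matrix arm accessory genes of complex I and 7 of 8 complex III genes. Without dense rescue culture 2 the median was -0.16 with 51 below 0, and without dense rescue culture 3 it was -0.57 with 61 below 0.

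The tissue isoforms of complex IV were measured where their probes allowed. Cox7a1, the heart and muscle form of subunit 7a, read -0.68, -0.81 and -1.17 in sparse KO cultures, against -2.33, -2.26 and -0.29 in sparse rescue cultures, and -0.57, -0.59 and -0.82 in dense KO cultures, against -0.54, 0.08 and -0.93 in dense rescue cultures. The third sparse rescue culture stood apart from the other two, and no comparison passed the test. Cox6b2, the testis form of subunit 6b, had differences of 0.00 and -0.11 between the lines, not past the test. The widely expressed forms Cox4i1 (0.00 and -0.34), Cox6a1 (-0.09 and -0.44), Cox6b1 (0.47 and -0.13), Cox7a2 (0.69 and 0.04) and the related supercomplex factor Cox7a2l (0.44 and -0.42) passed no test between the lines in sparse or dense cells. Cox4i2, an isoform of lung and of low oxygen, was above background on 2 of 12 arrays, 1 sparse and 1 dense rescue culture, and Cox7b2, Cox8b and Cox8c on none. Of the striated muscle markers on the array, 4 of 7 passed the filter: Des (3.19 and 1.20) and Mylpf (1.47 and 1.77) were higher in KO cells at both densities. Tnnt2 was lower in sparse KO cells (-0.77), and Myod1 was at least 5.40-fold higher in dense KO cells. The summed level of these 4 was 2.73 to 3.94 in KO and 1.97 to 4.69 in rescue cells. What part muscle genes have in Cox6a2 was not tested.

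Position on the chromosome was set beside the calls after the values had been seen, as a description. All 3 subunit genes on chromosome 16 (Atp5j, Atp5o and Ndufb4) were lower in KO cells at both densities, while the median of the 381 genes tested there was -0.11 in sparse and -0.02 in dense cells, with 36.7% and 38.6% of them lower. All 3 on the X chromosome (Cox7b, Ndufa1 and Ndufb11) were lower in dense KO cells, as were 49.2% of the 396 genes tested there, whose median was -0.57 in sparse and -0.61 in dense cells. On chromosome 17, whose 593 genes had the highest median of 20 chromosomes (0.45 in sparse and 0.46 in dense cells, with 40% and 45% of them higher), Ndufv3 and Ndufb10 of 5 subunit genes were higher in sparse KO cells, and Ndufv3 and Ndufv2 in dense KO cells. On chromosome 10, with a median of -0.60 and -0.53, none of 5 subunit genes was called in sparse cells and Ndufs7 and Uqcr11 were lower in dense KO cells, as were 47.7% of the genes tested there.

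Genes that serve the respiratory chain without being among these subunits gave a mixed picture, in lists compiled with results of these data known. Shares are read against the 48.8% of all genes called in sparse and 61.6% in dense cells. The mitochondrial ribosome, which translates the mitochondrially encoded subunits, had 77 genes tested: 19 were higher and 7 lower in sparse KO cells, 35 higher and 6 lower in dense KO cells (33.8% and 53.2%). With density, 3 were lower and 0 higher in KO cells (limma; 3.9%, against 10.9% of all genes), and 25 were lower and 2 higher in rescue cells (35.1%, against 40% of all genes, of which 21% were lower). Mrps35 was higher in KO cells by 1.75 in sparse and 1.92 in dense cells, and the changes of Mrps6 were -2.54 and -2.60. Of 6 genes for complex II and the cytochrome carriers, none passed in sparse cells, and Cycs (cytochrome c) was higher in dense KO cells (1.25). Of 13 genes of the citric acid cycle, 2 were lower in sparse KO cells (Ogdh -1.25 and Idh3g -0.62), and in dense KO cells these were lower and Suclg2 (1.17) and Idh3a (0.52) higher. Of 10 genes of pyruvate entry, 1 was higher and 4 lower in sparse and 3 higher and 5 lower in dense KO cells, with Pdha1, the pyruvate dehydrogenase subunit, at -1.21 and -1.24.

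Assembly factors were also divided. For complex I, 3 of 11 were higher and 1 lower in KO cells at each density, with Ndufaf3 at 1.98 in sparse and Ndufaf4 at 1.51 in dense cells. For complex III, 0 of 4 passed in sparse cells (limma) and 1, Ttc19, was lower in dense KO cells. For complex IV, 3 of 20 were higher and 3 lower in sparse and 3 higher and 6 lower in dense KO cells, and Surf1 was the largest fall (-1.72 and -1.56). For the ATP synthase, 1 of 4 was higher and 1 lower at each density. Coenzyme Q synthesis had 1 higher and 3 lower of 9 in sparse and 3 and 3 in dense KO cells. The carriers and porins had 1 lower of 6 in sparse and 1 higher in dense KO cells. Of 6 supercomplex and hypoxia-linked factors, 1 was higher and 2 lower at each density, among them Bnip3, a mitophagy receptor gene (-5.34 and -5.27).

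Regulators of mitochondrial gene expression included some of the largest differences. Of 14 tested, 4 were higher and 4 lower in sparse KO cells (57.1%, against 48.8% of all genes). In dense KO cells 7 were higher and 3 lower (71.4%, against 61.6% of all genes). Ppargc1a, for the coactivator PGC-1alpha, read -7.46, -7.20 and -7.24 in sparse KO cultures, against 0.18, -0.27 and -0.40 in sparse rescue cultures. It was above background on none of these KO arrays and at least 36-fold lower in KO cells (adjusted p = 7.54e-08). In the dense dishes it read -5.77, -8.14 and -7.17 in KO cultures, with 1 of 3 above background, against 2.79, 3.21 and 2.84 in rescue cultures (adjusted p = 2.92e-09). Its rise with density in rescue cells was 3.11 ± 0.45 (adjusted p = 0.000236), beside a subunit median of 0.01 there. The related coactivator gene Ppargc1b ran the other way, 2.09 higher in sparse and 0.89 in dense KO cells, and Gabpb1, for the beta chain of the ETS factor GABP, was higher by 1.51 and 1.96. Tfam, for a factor that transcribes and packs mitochondrial DNA, was higher by 0.69 and 1.22 and Polrmt, for the mitochondrial RNA polymerase, changed by -0.96 and -0.85, all past the test.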

How the data were processed

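RNA of 12 cultures was hybridised to 12 Agilent one-colour arrays. The authors' deposited scanner files hold the processed signal of each spot as a linear intensity, from Feature Extraction 10.5.1.1 per the file headers, and the submitters' processing notes name Agilent Feature Extraction 10. The authors' deposited value table holds log2 values, whose scaling is not given in the sources used here, and served as an alternative for days 1 and 2. Of 43379 spots per array, 79 to 265 flagged as non-uniform or as outliers were set missing. Spots of a probe were averaged, log2 values were centred on the 75th percentile of each array, and a probe stayed (25931 of 41174 did) if every one of the 3 arrays of some group had it well above background. The brightest kept probe stood for a gene, which left 12438 of 17016 named genes. Of 15 subunit genes with several kept probes, calls between the lines differed among a gene's probes for 4 in sparse and 3 in dense cells. No gene had probes called in opposite directions. No spot was saturated, and the number of arrays limits the precision.

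Group means were fitted over the 4 groups of 3 cultures with limma 3.58.1 (lmFit and eBayes) in R 4.3.3, with 8 residual degrees of freedom, and p-values were adjusted by Benjamini-Hochberg over all genes at 0.05. The 5 comparisons were KO minus rescue at each density, dense minus sparse in each line, and the difference of the density changes. An exact permutation of 3 against 3 cultures cannot go below 0.1 and was not used. Replicate numbers mark the experimental day per the labels and so pair the cultures; 11 of 18 same-day pairs had deviations correlated above 0.1 (range -0.04 to 0.30). The fit has no block, and values with day as a block stand beside the results they move. A bound ("at least") sets the brighter mean against the lowest signal well above background.

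Alternatives were another background correction (normexp with offset 50, on median signals because mean signals are not in the files; chosen after seeing the data), other scalings, filters and probe rules, blocks for day and slide, each culture left out in turn, and days 1 and 2 alone from either source (also chosen after seeing the data). Genes whose cultures are listed one by one are those past the test with the largest changes per complex and comparison, the isoform families, and those past the test of the difference of density changes; other genes named were chosen after their values were seen. The subunit genes and all lists were chosen with earlier results of these data known. Promoter sequences are from RefSeq (GRCm38.p6). The values of 1 subunit gene that counts include are not reported here.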

Additional observations from a re-analysis of the deposited data

Results flagged for a closer look

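The density change of 2 subunit genes differed between the lines by the test of the difference itself. For Cox6a2 the density change was 1.49 ± 0.23 (SE) log2 units more positive in KO than in rescue cells (limma, adjusted p = 0.00134), with 0.31 in KO cells and -1.18 in rescue cells. For Atp5e the difference was -1.23 ± 0.38 (limma, adjusted p = 0.0418), with a change of -0.77 in KO cells and 0.47 in rescue cells, neither past the test alone. Groups of 3 cultures were not screened for single outlying cultures.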

How the results depend on the processing

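Of 29 single-gene results under 23 alternatives each, 558 values kept direction and side of the threshold, 104 kept direction but missed the threshold and 5 reversed. All 5 reversals came with spike-in centring: Cox5a (-0.63) and Atp5e (-0.65) between lines in sparse cells, Atp5mpl (1.59) with density in KO cells, Atp5g1 (0.10) with density in rescue cells and the difference for Atp5e (0.52). Over all genes, that scaling gave median log2 changes of -1.44, 0.37, 2.50, 0.67 and 1.80 in the 5 comparisons.

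KO minus rescue in sparse cells gave 7 higher and 7 lower. The number higher was 3 with normexp, 16 with quantile normalisation, 3 with median centring, 1 with spike-in centring, 11 with the mean of probes, 12 in the deposited table of days 1 and 2, 3 with the slide block, and 3 to 10 with 1 culture left out. The number lower was 4 with normexp, 11 with median centring, 64 with spike-in centring, 4 with no filter, 4 in scanner files of days 1 and 2, and 4 to 8 with 1 culture left out. The median of 0.22 became 0.0937 with normexp, 0.08 in the deposited table, -0.0802 with median centring, -1.24 with spike-in centring and -0.0363 with the slide block, and ranged from 0.13 to 0.33 with 1 culture left out (0.13 without sparse KO culture 1 and without sparse rescue culture 3).

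In dense cells the 8 higher became 4 with normexp, 4 with the slide block and 6 to 9 with 1 culture left out. The 17 lower became 3 with spike-in centring, 27 in the deposited table and 8 to 23 with 1 culture left out, and the median of -0.12 was -0.285 with normexp, -0.41 with the slide block, -0.28 in the deposited table, -0.295 in scanner files of days 1 and 2, 0.17 with spike-in centring, and -0.37 to 0.05 with 1 culture left out.

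With density in KO cells, 75 were higher with spike-in centring in place of 0. The 2 lower became 0 with normexp, median centring, spike-in centring, no filter, the deposited table and scanner files of days 1 and 2, and 0 to 5 with 1 culture left out (5 without dense rescue culture 2). The median of -0.34 was -0.0841 with median centring, 2.16 with spike-in centring, -0.085 in the deposited table, and -0.44 to -0.17 with 1 culture left out. With density in rescue cells, the 0 higher became 14 with quantile normalisation, 25 with spike-in centring, 1 with probes above background on all 12 arrays, 5 in the deposited table, 2 in scanner files of days 1 and 2, 1 with the slide block, and 0 to 2 with 1 culture left out. The 2 lower became 1 with normexp, quantile normalisation, the deposited table and scanner files of days 1 and 2, 0 with spike-in centring, and 1 to 2 with 1 culture left out; the median was 0.76 with spike-in centring and -0.18 to 0.21 with 1 culture left out.

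For the difference of density changes, 50 were higher with spike-in centring in place of 1. The 1 lower became 0 with normexp, median centring, spike-in centring and no filter, 8 with quantile normalisation, 2 with probes above background on all 12 arrays, 5 in the deposited table, 2 in scanner files of days 1 and 2, 3 with the slide block, and 0 to 7 with 1 culture left out; the median was 1.39 with spike-in centring and -0.57 to -0.16 with 1 culture left out. The cause of these shifts was not tested.

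With the replicate block (day), 14 were higher and 8 lower in sparse KO cells, 8 higher and 19 lower in dense KO cells, 0 higher and 3 lower with density in KO cells, 1 higher and 2 lower with density in rescue cells, and 1 higher and 1 lower in the difference; none of the 29 single-gene results changed its call with that block. The deposited table as labelled was not run over all days, because its day-3 columns followed the arrays of the other line. Normexp on mean signals was not run, because the files hold no mean signals. With 3 cultures per group, 1 clone and slides that mostly held 1 line, small changes and slide effects cannot be resolved, and levels near background are bounds.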
